A study of Mus musculus with 8 samples.

Results

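Haemoglobin genes and Alas2, the gene for the erythroid form of aminolevulinate synthase, were examined in brain RNA of mice with a human C9ORF72 transgene and of wild-type mice. The set was listed by name as 5 genes (Hba-a1, Hba-a2, Hbb-bs, Hbb-bt and Alas2), and 4 of them had a row among the 15978 rows of the authors' deposited table. No row carried the accession of Hba-a1, whose level was not analysed here. The genes were chosen by name with their standard errors and empty p-values in this comparison already known, so the values of the comparison are given as a description. RNA came from 5 male mice carrying a bacterial artificial chromosome (BAC) with human C9ORF72 and 500 G4C2 repeats, called C9-BAC here, and from 3 male wild-type mice. Both groups were on a mixed SJL/Bl6 background. The labels give neither the age of the mice, the brain region, nor whether the vessels were flushed of blood before dissection, and do not name the transgenic line. Libraries were strand-specific and made without poly(A) selection, per the labels' protocols. Each row of the table has a single mean level over all mice, so levels in single mice and the spread between mice were not analysed here.

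Haemoglobin is the oxygen carrier of red cells, a tetramer of alpha and beta globin chains that each hold a haem group. Alas2 catalyses the first step of haem synthesis in developing red cells, and its transcript and the globin transcripts persist in reticulocytes, the youngest red cells in the circulation. In brain tissue these RNAs are known from blood within the vessels, and globin transcripts have also been described in neurons and glia. The adult alpha chain is encoded by the gene pair Hba-a1 and Hba-a2. In the C57BL/6 reference the adult beta chain is encoded by the pair Hbb-bs and Hbb-bt.

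The paired genes are close to identical in sequence, which decides what a row of the table can distinguish. Hba-a1 lies on chromosome 11 at 32283672 to 32284486 and Hba-a2 at 32296492 to 32297310 (GRCm38, the assembly also called mm10). Hbb-bt lies on chromosome 7 at 103812524 to 103813923, Hbb-bs at 103826523 to 103827928, and Alas2 on chromosome X at 150547417 to 150570622. The coding sequence of 426 bases differed between Hba-a1 and Hba-a2 at 1 position, C381T, counted from the first base of the start codon with the base of Hba-a1 first. The coding sequence of 441 bases differed between Hbb-bs and Hbb-bt at 1 position, C417T, with the base of Hbb-bs first. Neither change alters the encoded protein. The 55 coding bases around each difference, from GENCODE vM21 transcripts, are shown 5′ to 3′ with the differing base in capitals:
Hba-a1: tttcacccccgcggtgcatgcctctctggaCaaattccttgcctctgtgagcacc
Hba-a2: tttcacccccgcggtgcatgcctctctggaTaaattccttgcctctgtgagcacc
Hbb-bs: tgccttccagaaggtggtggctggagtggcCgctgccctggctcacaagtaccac
Hbb-bt: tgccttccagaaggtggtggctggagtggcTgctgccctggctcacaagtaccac

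Outside the coding sequence the pairs differ more. Of the 505 stretches of 50 bases in the Hba-a2 transcript, 439 (86.9%) also occur in the Hba-a1 transcript and 66 (13.1%) in no other gene's transcript. In Hbb-bs 198 of 579 stretches (34.2%) and in Hbb-bt 273 of 654 (41.7%) belong to that gene alone, and the shared ones are shared within the pair. All 1988 stretches of the Alas2 transcript are its own. The alpha and beta genes share no such stretch. The Hba-a2 row is named with the accession of Hba-a2 repeated and followed by the coordinates of the Hba-a2 gene, one of 53 rows with coordinates in the name. The handling of reads matching both copies is not stated, so the split between Hbb-bs and Hbb-bt, and the part of Hba-a1 in the Hba-a2 row, are uncertain.

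The promoters are shown as a description of the genes, and a link between them and the values in the comparison below was not tested. The 120 bases before each start site, from RefSeq (GRCm38.p6), are given 5′ to 3′ on the gene's strand. Capitals mark matches, on either strand, to the element CACCC (bound by erythroid Kruppel-like factors), to the CCAAT box, to the core GATAA of the GATA factors and to the TATAA box.
Hba-a1, chr11:32283552-32283671, plus strand: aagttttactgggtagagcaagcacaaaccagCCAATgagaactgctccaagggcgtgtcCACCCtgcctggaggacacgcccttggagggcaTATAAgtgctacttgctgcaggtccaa
Hba-a2, chr11:32296372-32296491, plus strand: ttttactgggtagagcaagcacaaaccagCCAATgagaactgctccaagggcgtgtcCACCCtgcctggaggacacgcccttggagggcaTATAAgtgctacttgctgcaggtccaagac
Hbb-bs, chr7:103827929-103828048, minus strand: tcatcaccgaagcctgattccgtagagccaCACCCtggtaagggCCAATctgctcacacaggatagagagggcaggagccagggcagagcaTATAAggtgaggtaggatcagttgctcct
Hbb-bt, chr7:103813924-103814043, minus strand: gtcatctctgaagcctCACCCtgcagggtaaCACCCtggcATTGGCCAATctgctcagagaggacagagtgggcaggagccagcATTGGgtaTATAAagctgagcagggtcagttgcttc
Alas2, chrX:150547297-150547416, plus strand: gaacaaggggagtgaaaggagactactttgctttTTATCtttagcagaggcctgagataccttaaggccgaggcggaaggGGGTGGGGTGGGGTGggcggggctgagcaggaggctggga

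The promoters of Hba-a1 and Hba-a2 did not differ at any of 247 compared bases. Each of the 4 globin promoters held a CACCC element, a CCAAT box and a TATAA box within the 120 bases shown. The Alas2 window held the CACCC element and the GATAA core, both on the opposite strand, and neither of the other motifs. Among 32851 RefSeq promoters, 31.7% held the CACCC element in the same window, 21.3% the CCAAT box, 10.5% the GATAA core and 11.8% the TATAA box. Over 250 bases before the start the 4 globin promoters held all 4 motifs, as did 0.968% of all promoters. In Alas2 the match to TATAA in that longer window lies on both strands with an overlap of the 2 matches. These matches are letters in a window and no measure of binding.

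The globin transcripts were of middling to high abundance in the brain libraries. The authors' deposited table lists Hba-a2 at 1183 mean normalized counts, which was 2136 per kilobase of transcript and higher than 99.0% of rows on that scale. For Hbb-bs the mean normalized count in the authors' deposited table was 721.5, or 1149 per kilobase. For Hbb-bt it was 161.8 in the authors' deposited table, or 230.1 per kilobase. Alas2, at 26.7 in the authors' deposited table, came to 13.6 per kilobase, above 24.6% of rows. Per kilobase, the Hba-a2 level was 1.86 times that of Hbb-bs and 1.55 times that of both beta rows added together. The handling of reads shared by Hba-a1 and Hba-a2 is not stated and can alter both ratios. Hbb-bs was 4.99 times as abundant as Hbb-bt per kilobase, with transcript lengths of 628 and 703 bases. These lengths and the reads shared within the pair can alter that ratio. The mean normalized count is an average over the 8 samples, so these ratios have no replicate error.

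The 3 globin rows together held 0.0224% of the summed mean normalized counts in the authors' deposited table. Other genes that mark red cells were scarce. Of 11 erythroid markers, 7 had a row, and beside the 4 genes described here these included Slc4a1, the anion exchanger of the red cell membrane, and Klf1, an erythroid transcription factor. Their mean normalized counts were 5.59 and 1.30 according to the authors' deposited table. Ahsp and Gata1 had no row among those used here. Of markers for the labelled tissue, Snap25, a synaptic gene of neurons, stood at 8862 per kilobase, and Mbp, a myelin gene, at 4079, both computed from the authors' deposited table.

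The comparison of C9-BAC with wild-type brain addresses the effect of the repeat-bearing transgene on brain RNA. Which genotype is the numerator is not recorded in the headers, so signs are as deposited. Differences below are log2 fold changes ± their standard errors. Whether a prior drew them toward 0 is not recorded, as described further below, so their sizes too are as deposited. All 4 rows were positive and of nearly the same size in the authors' deposited table, where 47.4% of all rows were positive. Hba-a2 stood at 0.07 ± 0.04 in the authors' deposited table, a fold of 1.05. Hbb-bs also stood at 0.07 ± 0.04 in the authors' deposited table. Hbb-bt stood at 0.06 ± 0.04 (p = 0.147, adjusted p = 0.9997 from DESeq2) in the authors' deposited table. Alas2 stood at 0.07 ± 0.04 (p = 0.12, adjusted p = 0.9997 from DESeq2) in the authors' deposited table. For Hba-a2 and Hbb-bs the p-value is empty in the authors' deposited table.

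Neither of the 2 rows with a p-value passed an adjusted p of 0.05 from DESeq2 or had an unadjusted p under 0.05. Of all 15944 rows with a p-value in the authors' deposited table, 0 (0%) passed and 239 (1.5%) were under 0.05 unadjusted. With the statistic rescaled to the spread of the table's own statistics, 3 of the 4 rows were under 0.05 unadjusted, beside 4.97% of the 13728 rows with 10 or more mean normalized counts, and 0 passed. The 3 rows included Hba-a2 and Hbb-bs, whose deposited p-value is empty. The share of 4.97% is background only, since these genes were picked with this contrast known. The differences of the 4 rows had a mean of 0.0671 and an SD of 0.00471 on the log2 scale, although their levels spanned 44.3-fold in mean normalized count. The rows share the same 8 libraries, so this likeness is not a set of independent observations. The Wald statistic, which is the difference divided by its standard error, was 1.69 for Hba-a2, 1.53 for Hbb-bs, 1.45 for Hbb-bt and 1.55 for Alas2 in the authors' deposited table. These statistics ranked at the 97.1 to 98.6 percentiles of the rows, a position read from the same contrast as the choice of the genes. In bulk tissue, fewer cells of a type and less RNA per cell cannot be told apart.

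Transcript GC content moved with the statistic across genes. Spearman's rho was 0.414 over 13579 rows with 10 or more mean normalized counts, which share their libraries and are not replicates. The GC content of the 4 transcripts lay between 50.8% for Hbb-bt and 56.9% for Hba-a2, beside a median of 50.5% over all rows. After the median statistic of rows of like GC content was subtracted, the 4 statistics were 1.43 for Hba-a2, 1.47 for Hbb-bs, 1.39 for Hbb-bt and 1.40 for Alas2. On that scale 0 of the 4 rows were under an unadjusted p of 0.05, beside 1.01% of the 15751 rows with a GC value.

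The standard errors of these rows were low beside those of others of like abundance. They were known when the genes were chosen, so the ranks below describe that choice and test nothing. The standard errors ran from 0.0424 to 0.0436 in the authors' deposited table, beside a median of 0.102 for the table. The ratio of the highest to the lowest was 1.03. Among 2935 rows within 2-fold of the level of Hba-a2, 0 had a lower standard error. For Hbb-bs it was 1 of 3949 such rows, for Hbb-bt 4 of 4425 and for Alas2 24 of 2137. Of 12393 rows at least as abundant as Alas2, 20 (0.161%) had a standard error as low as that of Hbb-bs or lower, among them all 4 rows described here. The other 16 included the adenosine receptor gene Adora2a and the tyrosine hydroxylase gene Th, the enzyme of dopamine synthesis, at 0.002 ± 0.04 and -0.02 ± 0.04 in the authors' deposited table. Both were named after their values were seen, as was Gm13304, the highest of the 16 at 0.04 ± 0.03 in the authors' deposited table.

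**Figure D1:**
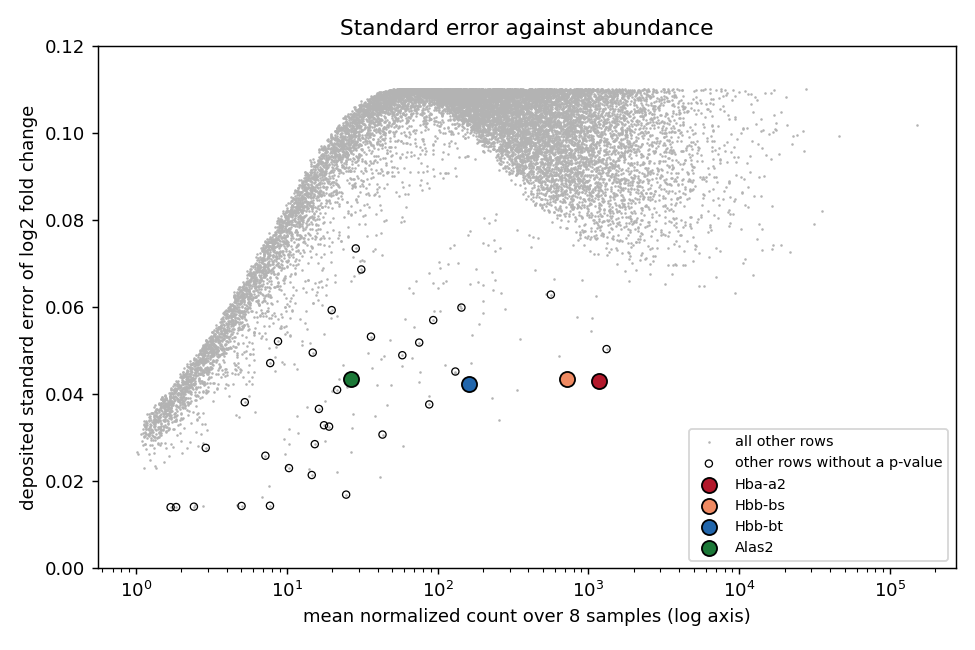
Deposited standard error of the log2 fold change (vertical axis) against the mean normalized count over 8 samples (horizontal log axis), 1 point per row of the table. Hba-a2, Hbb-bs, Hbb-bt and Alas2 (coloured) lie between 0.0424 and 0.0436 and below nearly all rows of like abundance, open black circles are the other rows without a p-value, and the highest standard error is 0.11.

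A low standard error does not by itself mark a precise value in this table. As the plot of standard error against abundance shows, the standard errors stopped at a ceiling of 0.11 and were lowest where counts were few, with a median of 0.0516 among rows of under 10 mean normalized counts in the authors' deposited table. A prior that draws fold changes toward 0 gives standard errors of this shape, though none is recorded in the labels or headers. If a normal prior was used with an SD of 0.22, which is 2 times the ceiling, the same standard error can come from much information per gene or from little. For Alas2 and Hbb-bt the first would need more information than their counts can hold. The second puts the unshrunken difference at 1.66 ± 1.07 for Alas2 and at 1.60 ± 1.10 for Hbb-bt, in log2 units ± standard error. The counts allow both solutions for Hba-a2, at 1.82 ± 1.08 or 0.08 ± 0.04, and for Hbb-bs, at 1.63 ± 1.07 or 0.07 ± 0.05. This limit takes in counting error alone and leaves out the spread between mice, so which solution holds for these rows was not tested. The statistics are the same on either scale. Whether a prior was used is not recorded, so the unshrunken values hold only under that assumption.

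Likeness to each gene was measured as the distance over 3 quantities, namely log10 mean normalized count, log2 fold change divided by 0.1 and standard error divided by 0.01, which all come from the same comparison of 8 samples. Standard errors were known when the genes were chosen, so nearness among these genes is in part set by that choice and tests nothing. The row most like Hba-a2 was Hbb-bs, at a distance of 0.228, and the reverse held. Gm3893 came next for both, at 0.672 from Hba-a2 and 0.608 from Hbb-bs, followed by Hbb-bt. The rows nearest to Hbb-bt were Drd2, a dopamine receptor gene of striatal neurons, at 0.617, Hbb-bs at 0.662 and Syndig1l at 0.682. Drd2 was at 0.006 ± 0.04 in the authors' deposited table, so its nearness rests on its level and standard error. The rows nearest to Alas2 were Gm3411 at 0.564, a row without a symbol at 0.728 and Eps8l1 at 0.739, and none of the globin rows.

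Rows without a p-value were rare, 34 of 15978 (0.213%) in the authors' deposited table, and of these only Nptx2 was more abundant than Hba-a2 and Hbb-bs. DESeq2 can leave a p-value empty where all counts are 0 or where the count of 1 sample is extreme. The first does not apply to these rows, whose mean normalized counts were at least 1.70 in the authors' deposited table. Counts in single samples were not analysed here, so the second was not tested. Nptx2, a neuronal pentraxin gene, was at -0.04 ± 0.05 in the authors' deposited table. Below Hbb-bs came Bcor, Cdkn1a (the p21 cell cycle inhibitor), Fosb (an immediate early gene), Gprc5c, Doc2g, Baz1a and Slc5a7 (the choline transporter), all negative in the authors' deposited table, from -0.06 to -0.007 on the log2 scale. A second Bcor row, at 30.3 mean normalized counts, was at 0.03 ± 0.10 (p = 0.773, adjusted p = 0.9997 from DESeq2) in the authors' deposited table. Of the 34 rows, 9 were positive and 25 negative in the authors' deposited table.

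Hba-a2 and Hbb-bs were 2 of the 9 positive ones. Another was Ppbp, a platelet chemokine gene, at 0.08 ± 0.04 and 5.27 mean normalized counts in the authors' deposited table. The statistic was 1.99 for Ppbp and 0.14 for the platelet factor gene Pf4, which was about as scarce at 5.60 in mean normalized count, in the authors' deposited table. Of 9 platelet and megakaryocyte genes, 7 were positive and 2 negative, with a median log2 fold change of 0.03 beside -0.004 for the whole of the authors' deposited table. Tubb1, a platelet tubulin gene, had the smallest p of this list and was at 0.06 ± 0.04 (p = 0.114, adjusted p = 0.9997 from DESeq2) in the authors' deposited table. The most abundant genes of the list, Gp1bb and Itgb3, were at 0.04 ± 0.11 and 0.11 ± 0.11 in the authors' deposited table.

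Leukocyte genes mostly had the opposite sign. Of 14 with a row, 3 were positive and 11 negative in the authors' deposited table, their median log2 fold change being -0.05, and 0 passed the DESeq2 adjusted threshold while 1 of the 14 was under 0.05 unadjusted, beside 1.5% of all rows. That gene was S100a9, which encodes a calcium-binding protein of granulocytes and monocytes, at -0.17 ± 0.07 (p = 0.015, adjusted p = 0.9997 from DESeq2) in the authors' deposited table. Ngp, a granule protein gene of neutrophils, was at -0.12 ± 0.06 (p = 0.0504, adjusted p = 0.9997 from DESeq2) in the authors' deposited table. The 6 granulocyte genes of the list, singled out after their values were seen (S100a8, S100a9, Ngp, Camp, Ltf and Retnlg), were all negative in the authors' deposited table, from -0.17 to -0.05 on the log2 scale. The summed mean normalized count of these 6 was 72.6 in the authors' deposited table, against 2067 for the 3 globin rows. Camp and Retnlg were scarce, at 3.39 and 2.25 mean normalized counts in the authors' deposited table. The 3 positive genes of the list, also named after their values were seen, were Ccr2, Itgal and Cd79a. They were at 0.02 ± 0.05, 0.02 ± 0.05 and 0.01 ± 0.05 in the authors' deposited table, each under 10 mean normalized counts. Lyz2 and Ptprc, which microglia also express, were at -0.11 ± 0.11 and -0.04 ± 0.10 in the authors' deposited table. The difference in sign between the globin and the granulocyte rows was not tested.

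**Figure D2:**
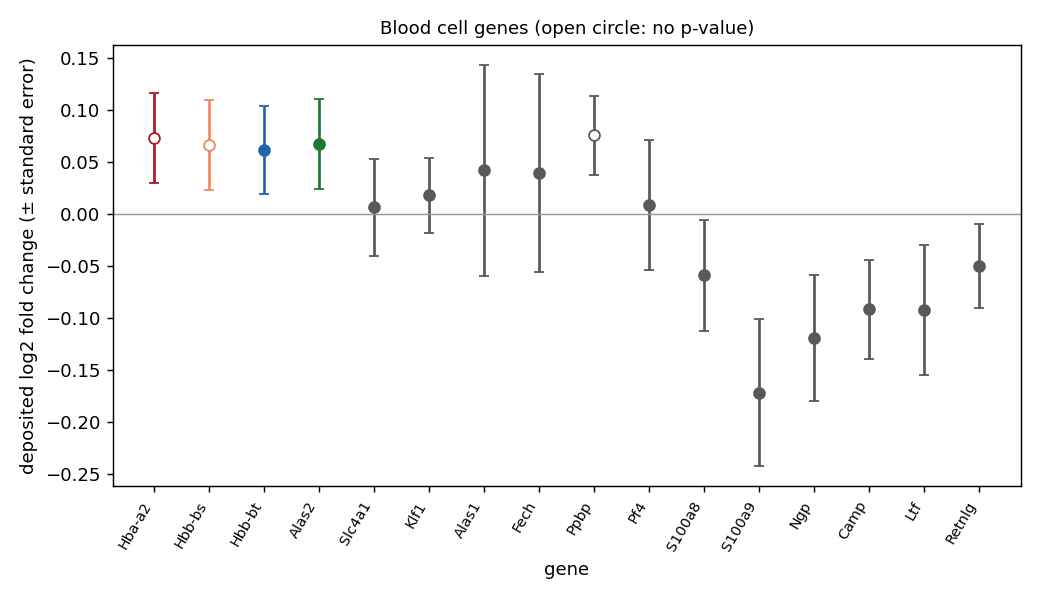
Deposited log2 fold change with its standard error (vertical axis, log2 scale) for genes of red cells, haem synthesis, platelets and granulocytes (horizontal axis), with open circles for genes without a p-value. Hba-a2, Hbb-bs, Hbb-bt, Alas2 and Ppbp lie between 0.06 and 0.08. The 6 granulocyte genes from S100a8 to Retnlg, singled out after their values were seen, lie below 0.

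Of 11 other globin genes listed, 3 had a row. Hbq1a, a theta globin gene, was scarce at 2.84 mean normalized counts and was at -0.009 ± 0.04 in the authors' deposited table. Cygb, the gene of cytoglobin, a globin of many tissues, was at 0.03 ± 0.10 (p = 0.756, adjusted p = 0.9997 from DESeq2) in the authors' deposited table. Ngb, the gene of neuroglobin, a globin of neurons, was at 0.03 ± 0.10 (p = 0.771, adjusted p = 0.9997 from DESeq2) in the authors' deposited table. Its level of 14.6 per kilobase was near the 13.6 of Alas2, and its standard error was 0.096 against 0.0435. The standard error of Alas2 was known when the genes were chosen.

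Genes of haem synthesis that act in all cells were well represented. All 11 listed had a row, 8 positive and 3 negative, with a median of 0.04 for the log2 fold change in the authors' deposited table. Of the 11, 0 were under 0.05 adjusted (DESeq2) or unadjusted, beside 0% and 1.5% of all rows with a p-value. Alas1, the form of aminolevulinate synthase used outside the red cell lineage, was at 0.04 ± 0.10 and 600.1 mean normalized counts in the authors' deposited table. Per kilobase Alas1 stood at 185.0, against 13.6 for Alas2. Alad, the enzyme of the step that follows, was at 0.05 ± 0.11 in the authors' deposited table. Uros, a later enzyme, had the smallest p of this list and was at 0.13 ± 0.10 (p = 0.204, adjusted p = 0.9997 from DESeq2) in the authors' deposited table.

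Haem breakdown and export genes were split evenly in the authors' deposited table, 6 positive and 6 negative of 12. Of the 12, 0 were under 0.05 unadjusted, beside 1.5% of all rows. The transporter gene Abcg2 was at -0.14 ± 0.11 and Lrp1, the receptor that takes up haem bound to haemopexin, at 0.14 ± 0.11 in the authors' deposited table. Slc48a1, a haem transporter gene, was at 0.12 ± 0.11 in the authors' deposited table. Iron genes had 7 positive and 12 negative members of 19 in the authors' deposited table, and 2 of the 19 were under 0.05 unadjusted, beside 1.5% of all rows. Fth1, the ferritin heavy chain, was at 0.21 ± 0.09 (p = 0.0176, adjusted p = 0.9997 from DESeq2) in the authors' deposited table. Steap3, a ferric reductase, was at 0.24 ± 0.11 (p = 0.0236, adjusted p = 0.9997 from DESeq2) in the authors' deposited table. Trf, the transferrin gene, was at 0.009 ± 0.11 in the authors' deposited table.

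Red cell membrane genes had 9 positive and 6 negative members of 15 in the authors' deposited table, their median log2 fold change being 0.007. Several of the abundant ones are also neuronal genes, such as the adducin gene Add2 and the spectrin gene Sptb, at 0.02 ± 0.08 and 0.06 ± 0.10 in the authors' deposited table. Dmtn, the actin-binding protein dematin, had the smallest p and was at 0.16 ± 0.07 (p = 0.0248, adjusted p = 0.9997 from DESeq2) in the authors' deposited table. Ermap, an erythroblast membrane protein gene, was at -0.07 ± 0.06 and 4.73 mean normalized counts in the authors' deposited table. The red cell markers Slc4a1 and Klf1, both under 10 mean normalized counts, were at 0.007 ± 0.05 and 0.02 ± 0.04 in the authors' deposited table.

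Genes of erythroid transcription and differentiation had 13 positive and 4 negative members of 17 in the authors' deposited table, their median log2 fold change being 0.03. Tent5c, a poly(A) polymerase gene, was at 0.16 ± 0.08 (p = 0.0467, adjusted p = 0.9997 from DESeq2) in the authors' deposited table. Fam210b, a mitochondrial protein gene, was at -0.17 ± 0.11 (p = 0.114, adjusted p = 0.9997 from DESeq2) in the authors' deposited table. Bnip3l, a mitophagy receptor gene that red cells share with neurons, was at -0.006 ± 0.09 in the authors' deposited table. The median standard error of this list was 0.0976, against 0.0433 for the 4 rows described, whose standard errors were known when they were chosen.

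Vessel genes stand beside the globins because blood is held in vessels. Brain endothelial genes had 13 positive and 7 negative members of 20 in the authors' deposited table, their median log2 fold change being 0.03. Of 12 mural cell genes, 10 were positive and 2 negative in the authors' deposited table, and their median was 0.06. Pecam1, an endothelial adhesion gene, was at 0.17 ± 0.10 (p = 0.0954, adjusted p = 0.9997 from DESeq2) in the authors' deposited table. Slc16a1, a monocarboxylate transporter gene, was at -0.21 ± 0.11 (p = 0.0509, adjusted p = 0.9997 from DESeq2) in the authors' deposited table. Among mural genes Cspg4 and Myh11 were at 0.19 ± 0.10 and 0.13 ± 0.11 in the authors' deposited table. The part of vessel content in the globin values was not tested.

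Hypoxia response genes had 7 positive and 9 negative members of 16 in the authors' deposited table. Egln1, an oxygen-sensing prolyl hydroxylase gene, was at 0.20 ± 0.09 (p = 0.0323, adjusted p = 0.9997 from DESeq2) in the authors' deposited table, and Pdk1, a kinase that restrains pyruvate use, at 0.10 ± 0.09. Markers of the main brain cell types had 4 positive and 8 negative members of 12 in the authors' deposited table, and 0 were under 0.05 unadjusted. Over the 12 lists other than the genes described, 6 of 156 genes with a p-value were under 0.05 unadjusted, beside 239 of 15944 rows (1.5%) of the authors' deposited table, and 0 passed the DESeq2 adjusted threshold.

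**Figure D3:**
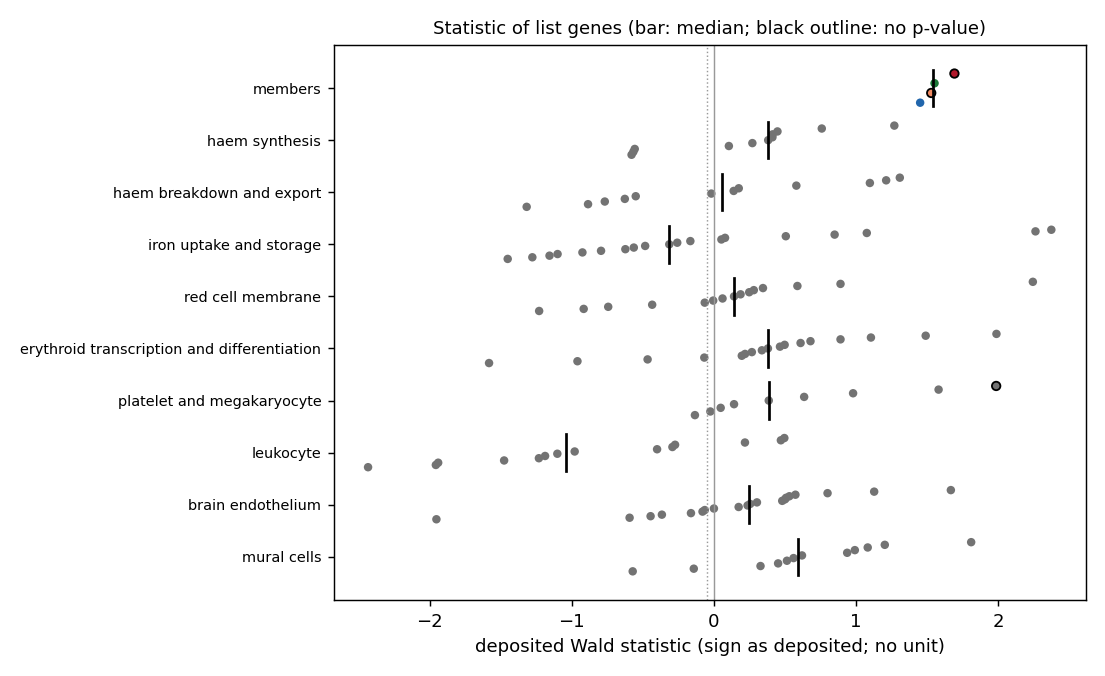
Deposited Wald statistic (horizontal axis, no unit, sign as deposited) of each gene in the 4 rows described (labelled members, coloured) and in 9 lists of related genes (vertical axis), with a bar at each median, a black outline where a p-value is missing, a solid line at 0 and a dotted line at the median of all rows. The 4 rows lie between 1.45 and 1.69, the leukocyte median is at -1.04, and the other lists have medians from -0.31 to 0.59.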

How the data were processed

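The submitters' processing notes name build mm10 and the tools Trimmomatic, Bowtie2, DESeq and DESeq2, without versions. No source used here gives the read counter, annotation or filters. The authors deposited 1 DESeq2 result for 5 C9-BAC and 3 wild-type samples, per the file headers. Its mean normalized count is a signal, the authors' mean of counts divided by size factors. Fold changes and standard errors are log2 values, per the file headers. The deposited Wald statistic is a score, and each deposited p-value and adjusted p-value is the authors' own. Each sample was taken as 1 mouse. If samples were drawn otherwise, p-values measure only their spread, which may be technical. The mean normalized counts sum to 9226666 over the table, the only measure of depth used.

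Symbols came from RefSeq (GRCm38.p6) for 15857 rows and GENCODE vM21 for 73, and 48 rows had none. Transcript length and GC content came from GENCODE vM21 for 98.6% of rows. Levels per kilobase divide the mean normalized count by transcript length. No test was run over the genes listed. The functions used were tested on simulated data. Analyses used Python 3.11.15 with pandas 2.3.3 and scipy 1.17.1. The genes and the 12 other lists were chosen with earlier results of these data known. Named are the 4 rows, in each list the 2 genes of smallest p, the 2 most abundant and those without a p-value, the 10 most abundant rows without a p-value and the 3 rows most like each gene. Genes fixed as cell type markers are named too. Some genes that this rule covers are counted in their lists but not reported here by name. Alternatives were other families for the adjustment, an empirical null, a correction for GC content, undoing a prior and other windows of abundance.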

Additional observations from a re-analysis of the deposited data

How the results depend on the processing

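Neither of the 2 rows with a p-value, Hbb-bt and Alas2, passed an adjusted p of 0.05 when DESeq2 p-values were adjusted over rows of 10 or more mean normalized counts (lowest adjusted p = 0.9997). None of the 4 rows passed when rows without a p-value were kept in with a p from their statistic, when the DESeq2 statistic was rescaled to an empirical null (lowest adjusted p = 0.942) or when its GC trend was subtracted. At an unadjusted p of 0.05, 3 of the 4 rows were called with the empirical null, beside 4.97% of rows with 10 or more mean normalized counts, and 0 in the other settings. The 3 rows included Hba-a2 and Hbb-bs, which have no deposited p-value. The share is background only, since the genes were picked with this contrast known. The lists of related genes gave 0 adjusted calls in the settings run, with 6 genes under an unadjusted p of 0.05 as deposited (6 of 156, beside 1.5% of all rows) and 7 with the GC trend subtracted (7 of 157, beside 1.01% of rows). The median share of rows of like abundance with a lower standard error than the 4 rows was 0.0579% within 2-fold, 0.0192% within 1.5-fold and 0.0691% within 3-fold. These standard errors were known when the genes were chosen, so the shares are a description. Undoing an assumed prior raised the log2 fold changes from 0.06 to 0.07 as deposited to 1.60 to 1.82 in the solution with little information. Fits without 1 mouse need values per sample and were not run. No paired analysis was possible because the table has no columns per sample and C9-BAC and wild-type mice have no replicate numbers in common.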
